A study of Homo sapiens with 6 samples.

Results

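The E2F transcription factors E2F1 to E2F8 and their dimerisation partners TFDP1 and TFDP2 were followed in HEK293T cells given the microRNA miR-34a. The family of 10 members was taken whole by gene name, but with earlier results of these data known. E2F3 and E2F5 were also known as published miR-34a targets. All 10 were found among the 63140 genes of the count table, and all 10 passed the filter on low counts. HEK293T is an immortalised human embryonic kidney line; 3 libraries came from cells transfected with a miR-34a duplex and 3 from cells transfected with the AllStars negative control, which the labels call an siRNA in one place and a miRNA in another. Total RNA was collected 18 h after transfection in both groups, and the replicates were described as biological, with no word on how the cultures were separated. As a model for E2F biology the line has a limit shared by both groups: it carries the adenoviral E1A protein and the SV40 large T antigen, which bind the retinoblastoma family and release E2F from it.

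E2F proteins bind the promoters of genes for DNA replication and the cell cycle, most of them as a dimer with a DP protein encoded by TFDP1 or TFDP2. E2F1, E2F2 and E2F3 chiefly activate transcription, while E2F4 and E2F5 act mostly as repressors together with the pocket proteins RBL1 and RBL2. E2F6 represses with Polycomb proteins, and E2F7 and E2F8, the atypical members, repress without a DP partner. A microRNA guides Argonaute to mRNAs that match its seed near the 5′ end, mostly in the 3′ untranslated region (UTR), and lowers their level.

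The seed of miR-34a-5p is shown with the matching sites of E2F2, E2F3 and TFDP2, because a seed match is the feature by which the members differ most plainly. The mature sequence is from RefSeq (GRCh38.p14), where it lies on chromosome 1 at 9151735 to 9151756 on the minus strand; the sites are from GENCODE 29 transcripts, written 5′ to 3′ as DNA. Capitals mark the seed, bases 2 to 8, in the microRNA and the matched bases in the sites.
miR-34a-5p: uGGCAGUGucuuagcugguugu
E2F3, 8mer: tagcaattaatttgtaaaCACTGCCAga
TFDP2, 7mer-m8: gcattaaatactttgccagCACTGCCtt
E2F2, 7mer-A1: ggtcagattaaaacaaaaaACTGCCAaa

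Of the 10 members, 4 held a 7mer or 8mer match (CACTGCCA, CACTGCC or ACTGCCA) in the 3′ UTR of the transcript with the longest coding sequence; among all classed genes tested, 20.9% held one. E2F5 held the densest set: a 7mer-A1, a 6mer (ACTGCC) and an 8mer starting 371, 382 and 424 nt after the stop codon, in a 3′ UTR of 653 nt. The 8mer of E2F5 lies in the last exon, exon 8, on chromosome 8 at 85214286 to 85214293 (GRCh38, plus strand). E2F3 held a single 8mer starting 2730 nt into a 3′ UTR of 3285 nt, in its last exon, exon 7, on chromosome 6 at 20493160 to 20493167 (plus strand). TFDP2 held 1 7mer-m8, 753 nt after the stop codon, and a pair of 6mers in a 3′ UTR of 8085 nt; the 7mer-m8 lies on chromosome 3 at 141951754 to 141951760 (minus strand). E2F2 held 1 7mer-A1, 1016 nt after the stop codon in a 3′ UTR of 3450 nt, on chromosome 1 at 23508858 to 23508864 (minus strand). Not every coding transcript searched held a match: 3 of 6 did for E2F5 and 3 of 6 for TFDP2. For E2F3 it was 3 of 3, and for E2F2 1 of 1. E2F1, E2F4, E2F6, E2F7, E2F8 and TFDP1 held no match of any kind in the 3′ UTR searched, nor in that of any other coding transcript annotated.

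The sites also differed in their predicted pairing outside the seed. RNAduplex, run on windows of 28 bases, gave the 8mer window of E2F3 a free energy of -18.9 kcal/mol with 19 of the 22 microRNA bases paired. The 8mer window of E2F5 had -18.7 kcal/mol with 13 bases paired, and the 7mer-m8 window of TFDP2 -18.7 kcal/mol with 12 paired. The 7mer-A1 window of E2F2 had -14.5 kcal/mol with 17 bases paired. These are computed structures of isolated windows, not measurements. Outside the 3′ UTR, the coding sequence of E2F3 held a 6mer and the 5′ UTR of E2F8 a 7mer-A1, and no other member held a match there.

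**Figure D1:**
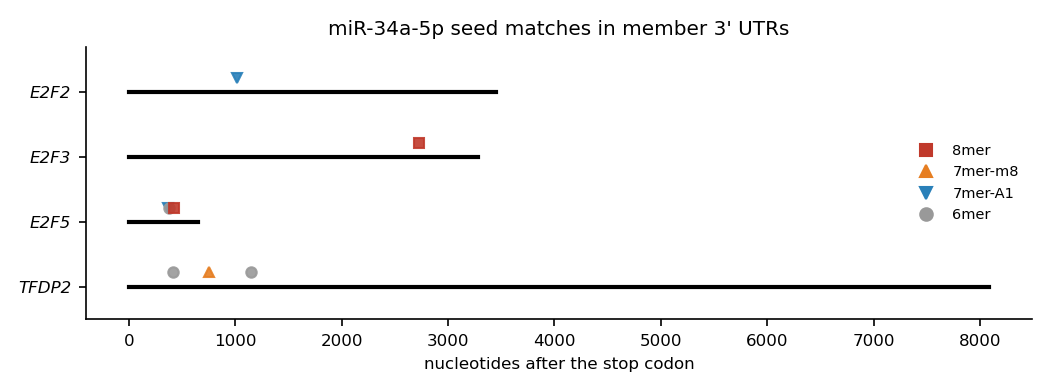
Seed matches for miR-34a-5p along the 3′ UTRs of the 4 members that hold any, in nucleotides after the stop codon; each black line is the length of one 3′ UTR and each symbol a match, raised above its line. The 3 matches of E2F5 lie between 371 and 424 nt in the shortest of these UTRs, while the 8mer of E2F3 lies near the end of its UTR.

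The 6 libraries held 24728662 to 36650331 counts, and every member had at least 421 counts in each library. Of 7 genes fixed as HEK293 markers all were tested, and PAX2 stood lowest, at 1.74 CPM (counts scaled to the library's size) in the control; genes of leukocytes, endothelium, liver and red cells (PTPRC, PECAM1, ALB and HBB) had at most 4 counts in any library. The markers NEFL and NEFM fell by 0.32 and 0.22 on the log2 scale, and the other 5 did not pass. Over all 17427 genes tested, 6.7% fell and 5.38% rose (edgeR quasi-likelihood test, Benjamini-Hochberg adjusted p under 0.05 over all genes), with a median log2 fold change of -0.004.

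With miR-34a, 2 of the 10 members fell, E2F5 and E2F3, and none rose. These are the 2 members with an 8mer. Both belong to the published targets, and the direction of E2F5 was known from an earlier analysis of these data. At an unadjusted p under 0.05, E2F2 also lay lower and E2F7 and E2F8 higher; none of these passed after adjustment, and 0 members rose by DESeq2 or limma-voom either. Among all tested genes whose strongest match was an 8mer, 27.8% fell; the shares were 17.1% for a 7mer-m8, 15.3% for a 7mer-A1, 9.95% for a 6mer and 4.9% for no match. The median log2 fold change over the members was -0.07. In these bulk samples, fewer cells expressing a gene and less RNA per cell cannot be told apart.

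E2F5, one of the repressors that work with the pocket proteins, had the largest change of the family. In replicates 1, 2 and 3 its level was 35.2, 31.2 and 29.3 CPM for the control and 17.1, 14.4 and 13.95 CPM for miR-34a. Every miR-34a library lay below every control library, with a wide gap between the groups. Such separation below the control, also seen in E2F2, E2F3, E2F4 and TFDP2, held for 14.2% of all tested genes. The fall was 2.11-fold, a log2 fold change of -1.08 ± 0.10 (SE; 95% interval -1.28 to -0.88; n = 3 per group), with an adjusted p of 1.6e-08 by edgeR. Only 0.367% of all tested genes, and 12 of the 679 genes with an 8mer, had a lower log2 fold change. The gene lies on chromosome 8 at 85177225 to 85217158, and 16.4% of its exonic length is shared with RBIS, a ribosome biogenesis factor on the opposite strand. RBIS stood at 30.9 ± 1.89 CPM in the control and 28.03 ± 2.06 CPM with miR-34a (SD, n = 3), with a log2 fold change of -0.14 and an adjusted p of 0.33. The library kit does not mark strand, so reads from the shared part cannot be assigned to either gene, and the exact size of the E2F5 change is uncertain.

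E2F3, one of the activators, fell by a much smaller amount. In replicates 1, 2 and 3 its level was 125, 116 and 122 CPM for the control and 99.4, 93.7 and 100.6 CPM for miR-34a. The groups did not overlap. The fall was 1.23-fold, a log2 fold change of -0.30 ± 0.07 (SE; 95% interval -0.44 to -0.16), with an adjusted p of 0.0031 by edgeR. Among the genes with an 8mer, 30.3% had a lower value than E2F3, and the median of that class was -0.14. The intervals of E2F3 and E2F5 do not meet. Counts per gene cannot separate the 2 main protein forms of E2F3, which start at different promoters.

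E2F1 and E2F2, the other activators, did not pass. E2F1, the member best known for inducing both replication genes and apoptosis, stood at 68.2, 74.4 and 75.6 CPM in the control and 75.7, 71.3 and 71.7 CPM with miR-34a. The groups overlapped, and the log2 fold change was 0.00 ± 0.07 (95% interval -0.14 to 0.15), which turned to -0.04 without control replicate 1 and -0.03 without miR-34a replicate 1. E2F2 stood at 40.6, 38.7 and 38.3 CPM in the control and 34.6, 35.1 and 34.98 CPM with miR-34a. All miR-34a libraries of E2F2 lay below the control, as they did for 14.2% of all tested genes, but the log2 fold change of -0.17 ± 0.07 had an adjusted p of 0.16 by edgeR.

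E2F4, like E2F5 a repressor that works with the pocket proteins, and E2F6, the Polycomb-linked repressor, did not pass either. E2F4 stood at 102, 104 and 97.7 CPM in the control and 95.5, 92.9 and 93.1 CPM with miR-34a. The groups just failed to overlap, with a log2 fold change of -0.11 ± 0.07 and an adjusted p of 0.33 by edgeR. Its interval, -0.25 to 0.03, lies apart from that of its close relative E2F5. E2F6 stood at 36.8, 34.02 and 37.01 CPM in the control and 34.9, 36.3 and 34.2 CPM with miR-34a, with overlapping groups and a log2 fold change of -0.03 ± 0.08.

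The atypical repressors E2F7 and E2F8, which themselves are induced by E2F in S phase, had the highest fold changes of the family. E2F7 stood at 60.2, 52.5 and 54.0 CPM in the control and 62.9, 58.3 and 67.8 CPM with miR-34a. E2F8 stood at 34.3, 25.0 and 28.1 CPM in the control and 36.7, 31.4 and 35.7 CPM with miR-34a. For both genes control replicate 1 was the highest control library and overlapped the miR-34a group. The log2 fold changes were 0.18 ± 0.08 for E2F7, adjusted p = 0.14, and 0.25 ± 0.10 for E2F8, adjusted p = 0.095, by edgeR. Without control replicate 1 both passed: E2F7 at 0.25, adjusted p = 0.035, and E2F8 at 0.39, adjusted p = 0.0028. E2F8 moved the other way without control replicate 2, to 0.15, adjusted p = 0.44. With all 6 libraries and no filter on low counts, E2F8 passed, at 0.27 with an adjusted p of 0.041, and E2F7 did not.

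The DP partners did not pass. TFDP1, which encodes the main partner DP1, stood at 223, 219 and 208 CPM in the control and 245, 218 and 224 CPM with miR-34a, with overlapping groups and a log2 fold change of 0.08 ± 0.07. TFDP2 stood at 74.1, 69.3 and 69.8 CPM in the control and 64.0, 65.1 and 67.7 CPM with miR-34a. All miR-34a libraries of TFDP2 were lower, yet the log2 fold change of -0.11 ± 0.07 had an adjusted p of 0.34 by edgeR. It holds a 7mer-m8 match, and its 95% interval, -0.26 to 0.03, also holds the median of all genes with a 7mer-m8, -0.08.

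**Figure D2:**
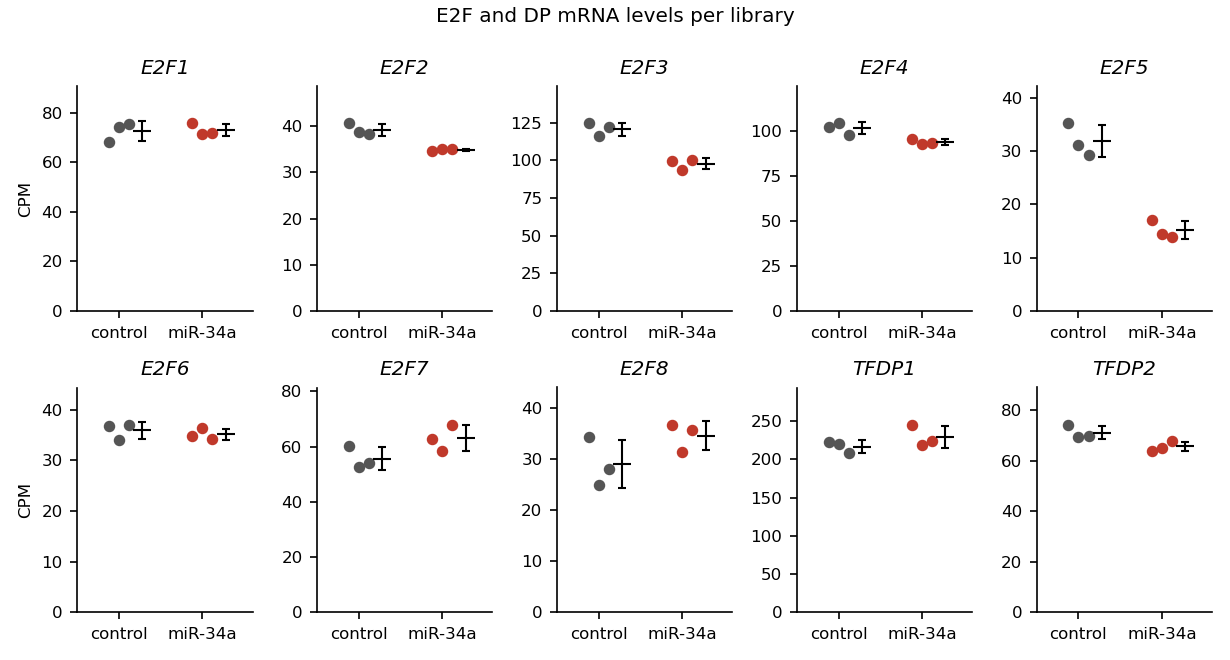
Level of each member in CPM, 1 panel per gene with its own axis from 0; points are libraries (replicates 1, 2 and 3 from left to right), and the bar beside them is the mean ± SD of 3. E2F5 and E2F3 show clear gaps between control and miR-34a, and control replicate 1 stands highest among the controls of E2F7 and E2F8.

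**Figure D3:**
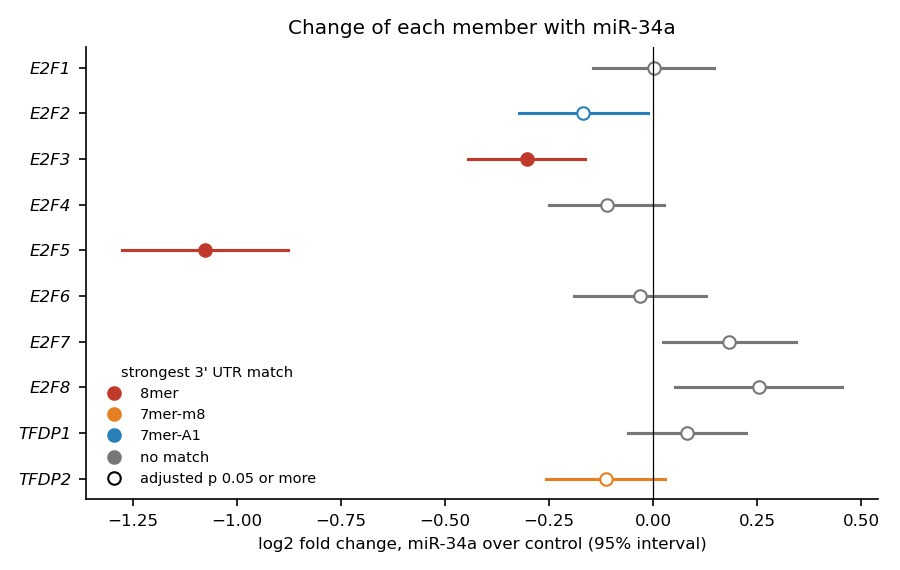
Log2 fold change of each member, miR-34a over control, with its 95% interval from the edgeR fit; colour gives the strongest seed match in the 3′ UTR and open circles did not pass the test. E2F5 at -1.08 and E2F3 at -0.30, both with an 8mer, are the filled points.

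Levels of different genes were compared per length, as CPM per kb of exonic sequence, in the control. TFDP1 stood highest, at 57.9 ± 2.12 CPM per kb (SD, n = 3). E2F1 at 29.1 ± 1.58 and E2F4 at 28.3 ± 0.923 came next and did not differ beyond their spread, followed by E2F3 at 23.4 ± 0.837. E2F6 at 8.84 ± 0.413 and E2F7 at 8.82 ± 0.650 CPM per kb were alike within their spread. E2F2, E2F8, TFDP2 and E2F5 formed the lowest set, at 7.19, 7.04, 5.97 and 5.38 CPM per kb, and each overlapped the next in the control libraries. The order depends on the length used. Divided by the length of 1 chosen transcript, which for E2F5 and E2F4 is much shorter than the union of their exons, E2F5 stood at 18.5 CPM per kb and ranked 5 instead of 10. E2F4 stood at 48.4 CPM per kb on that scale, above E2F1 at 29.1.

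The makeup of the E2F mRNA pool followed from these levels. In the control, E2F1, E2F2 and E2F3 held 50.6 ± 1.47% (SD, n = 3) of the summed CPM per kb of E2F1 to E2F8, and with miR-34a 49.4 ± 0.128%. The share of E2F4 and E2F5 was 28.7, 29.5 and 27.4% in the control libraries and 26.2, 26.5 and 25.6% in the miR-34a libraries. The share of E2F7 and E2F8 was 14.8, 12.3 and 13.1% against 16.7, 15.7 and 17.5%. Neither of these 2 shares overlapped between the groups. The summed level of E2F7 and E2F8 did overlap. It was 17.8, 14.4 and 15.4 CPM per kb in the control and 18.9, 16.8 and 19.4 CPM per kb with miR-34a. That of E2F4 and E2F5 did not overlap. Among all tested genes, every miR-34a library lay below the control for 14.2% and above it for 13.1%. Within the pair E2F4 and E2F5, the part held by E2F5 went from 16.0 ± 1.08% to 8.88 ± 0.772%. With the length of 1 transcript that part was 27.6 ± 1.595% and 16.3 ± 1.30%, and the share of E2F1, E2F2 and E2F3 was 39.2 ± 1.42% in the control and 39.8 ± 0.0979% with miR-34a, so the sign of that small difference turned. The summed level of E2F1 to E2F8 was 118 ± 1.98 CPM per kb in the control and 110 ± 2.84 CPM per kb with miR-34a. TFDP2 held 9.36 ± 0.288% of the DP mRNA in the control and 8.28 ± 0.593% with miR-34a.

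**Figure D4:**
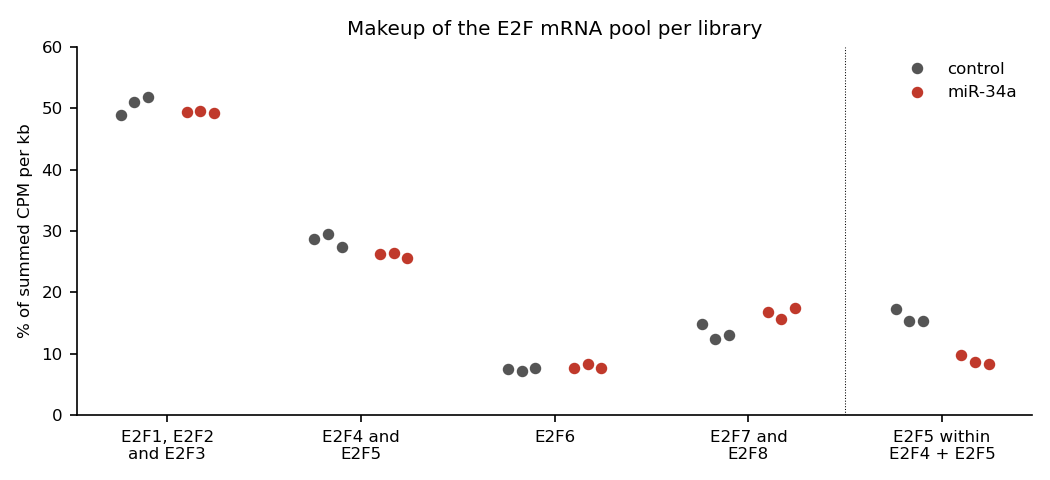
Share of the E2F mRNA pool held by each class, as a percent of the summed CPM per kb of E2F1 to E2F8, and, right of the dotted line, E2F5 as a percent of E2F4 and E2F5; points are libraries. The E2F5 part of the pair lies at 15.3 to 17.2% in the control and 8.30 to 9.75% with miR-34a.

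The genes whose pattern over the 6 libraries lay closest to the 2 fallen members were taken from 9926 well-expressed protein-coding genes by the Euclidean distance of centred log2 CPM. Nearest to E2F5 were SH3GL1, an endophilin, at a distance of 0.17 and TBC1D13, at 0.19. Their log2 fold changes were -1.13 and -0.95. Nearest to E2F3 were MAML1, a Notch coactivator, and ADIPOR2, an adiponectin receptor, both at 0.06, with log2 fold changes of -0.31 and -0.26. With 2 groups of 3, such likeness rests mostly on the change between the groups.

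Upstream of E2F, genes that control its release from the pocket proteins fell more often than they rose. Of 22 such G1 regulators, 8 fell, 2 rose and 12 did not pass, with a median log2 fold change of -0.17. The fallen share was 36.4% and the risen share 9.09%, against 6.7% and 5.38% of all tested genes. The kinases CDK4 and CDK6, which phosphorylate the retinoblastoma protein, fell by 0.96 and 0.90 on the log2 scale, and their cyclins CCND1 and CCND3 by 0.74 and 0.41. The phosphatase CDC25A, an activator of CDK2, fell by 0.39, and CDKN2A, which encodes the CDK4 inhibitor p16, by 0.30. The fallen genes thus held activators as well as an inhibitor, so their number gives no single direction of control over E2F. Exons of TSPAN31 overlap 43.2% of CDK4 and those of LTO1 10.3% of CCND1, both from the opposite strand. The 2 that rose were the pocket proteins RBL1, from 44.0 ± 2.05 to 53.2 ± 1.34 CPM, and RBL2, from 76.0 ± 4.80 to 92.2 ± 5.27 CPM (SD, n = 3); they were named after their values were seen. Their log2 fold changes were 0.27 ± 0.07 and 0.28 ± 0.07, with adjusted p-values of 0.013 and 0.010 by edgeR. Both calls depended on single libraries: RBL1 had an adjusted p of 0.099 when control replicate 3 was left out and of 0.052 when miR-34a replicate 3 was, and RBL2 had 0.059, 0.057 and 0.056 in the absence of control replicate 2, control replicate 3 and miR-34a replicate 3. RB1 itself did not pass, at a log2 fold change of 0.06 ± 0.07. CDKN2A lost its call in 4 of the 6 fits that left out a library, with adjusted p-values up to 0.35 without control replicate 2. CDKN1A and CCNE1 were also counted among the fallen. CDKN1A had an adjusted p of 0.21 by edgeR without control replicate 2, and CCNE1 one of 0.061 without miR-34a replicate 3. Without control replicate 3, 5 of these regulators fell.

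Downstream, most E2F target genes did not pass. Of 53 genes known to be driven by E2F, 8 fell, 2 rose and 43 did not pass. The list covers DNA replication, nucleotide supply and repair, but also chromatin, histone expression and apoptosis. The median log2 fold change was -0.01, close to that of all genes. By share, 15.1% fell and 3.77% rose, against 6.7% and 5.38% of all tested genes. TK1, which phosphorylates thymidine, fell by 1.10 on the log2 scale and GINS3, a subunit of the replicative helicase, by 0.94. The helicase genes MCM3, GINS1, MCM2 and MCM5 fell by 0.64, 0.45, 0.44 and 0.40. GINS3 holds an 8mer and TK1 a 7mer-m8 for miR-34a, MCM5 and GINS1 a 6mer, and MCM2 and MCM3 no match in the 3′ UTR searched. MCM2 shares 22.7% of its exonic length with a little-expressed antisense gene. The 2 that rose were BRCA1, which works in DNA repair, with a log2 fold change of 0.33 ± 0.07, and NPAT, which activates histone genes, with 0.28 ± 0.08; both were named after their values were seen. NPAT lost its call when control replicate 2 was left out (0.20, adjusted p = 0.15) and when miR-34a replicate 3 was (0.23, adjusted p = 0.099). Without control replicate 1, 6 genes of this list rose; 1 did without control replicate 2 or without miR-34a replicate 3.

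Of 13 partners in the E2F6 complex, 2 fell and none rose by edgeR, or 15.4% fallen against 6.7% of all tested genes. In this list 1 gene was higher at an unadjusted p under 0.05, and 0 rose by DESeq2 or limma-voom. HDAC1, a deacetylase and published miR-34a target, fell by 0.76 on the log2 scale and RING1, a Polycomb ubiquitin ligase, by 0.40. The germ cell genes that E2F6 is known to keep silent stayed at low counts; 7 of 11 were not tested, with at most 8 counts in any library, and none of the other 4 passed (edgeR; 0 at an unadjusted p under 0.05, and 0 by DESeq2 or limma-voom), among them TAF7L at 1.21 CPM and STAG3 at 0.895 CPM in the control. Among the 6 genes for the MuvB core and MYBL2, MYBL2 fell by 0.35 on the log2 scale. LIN9 and LIN52 rose, both with a log2 fold change of 0.28. The fallen share was 16.7% and the risen share 33.3%, against 6.7% and 5.38% of all tested genes. The call of LIN9 was lost without control replicate 2 (adjusted p = 0.055), and that of LIN52 without control replicate 3, miR-34a replicate 1 or miR-34a replicate 3 (adjusted p = 0.068, 0.060 and 0.051). Of 9 tested cofactors, PHB, a prohibitin that binds E2F1, fell by 0.25 and none rose by edgeR. That is 11.1% fallen, against 6.7% of all tested genes. In this list 0 genes were higher at an unadjusted p under 0.05, and 0 rose by DESeq2 or limma-voom. PHB lost its call in 4 of the 6 fits that left out a library, with adjusted p-values of 0.058 to 0.0865 by edgeR. These were the fits without control replicate 2 or 3 or without miR-34a replicate 2 or 3.

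E2F4 and E2F5 also serve the making of multiple cilia, together with MCIDAS and its relatives. Of 9 tested genes of that list, 3 fell and 1 rose, or 33.3% and 11.1%. Over all tested genes the shares were 6.7% and 5.38%. MYB, a transcription factor, fell by 0.97 on the log2 scale, GMNN, which encodes geminin, by 0.63 and MCIDAS by 0.61; the last stood at 4.19 ± 0.487 CPM in the control and 2.71 ± 0.550 CPM with miR-34a. FOXJ1, a master regulator of motile cilia, had 0, 10 and 0 counts in the control libraries and 11, 18 and 18 with miR-34a, so its call rests on few counts, and it was lost in 5 of the 6 fits that left out a library. MCIDAS kept its call only in the fits that left out control replicate 2 or miR-34a replicate 3; in the other 4 its adjusted p was 0.080 to 0.14.

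For comparison, 20 other published miR-34a targets were listed. Of 17 tested, 11 fell and none rose by edgeR, with a median log2 fold change of -0.68. The fallen share was 64.7%, against 6.7% of all tested genes. In this list 1 gene was higher at an unadjusted p under 0.05, and 0 rose by DESeq2 or limma-voom. Against the published targets tested, E2F5 at -1.08 lay below the lowest, CDK4 at -0.96, while E2F3 at -0.30 lay above their median. SIRT1, the deacetylase of that list, stood at 92.4, 71.1 and 83.7 CPM in the control and 49.7, 428 and 73.3 CPM with miR-34a. Its log2 fold change of 1.16 rests on miR-34a replicate 2 and turned to -0.41 without it, adjusted p = 0.027. This list was drawn from the literature on miR-34a with earlier results of these data known, so its direction is not independent evidence. Its genes CDK4, CDK6, CCND1, CCNE2 and HDAC1 are also counted in the lists above.

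**Figure D5:**
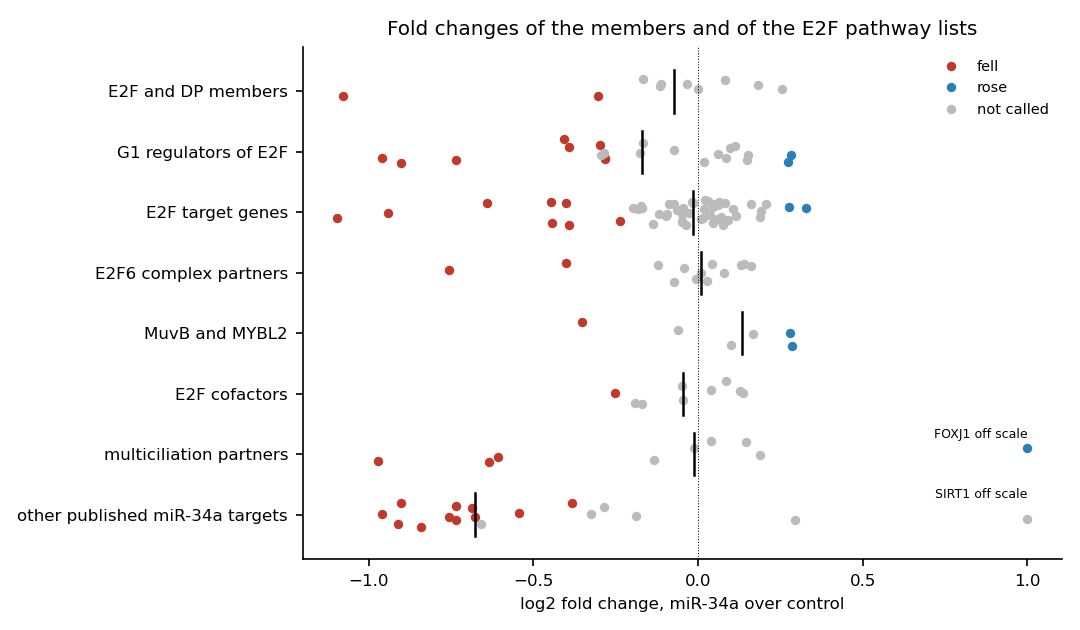
Log2 fold changes, miR-34a over control, of the members and of each list of related genes; points are genes, coloured by call, black bars are list medians and the vertical spread within a row has no meaning. FOXJ1 (2.18) and SIRT1 (1.16, not called; -0.41 without miR-34a replicate 2) lie off the scale and are drawn at its right edge.

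Several family members are themselves known targets of E2F, and their promoters were searched for 3 forms of the E2F site, TTTCGCGC, TTTGGCGC and TTTCCCGC, on both strands; a base can belong to more than 1 match. Promoters of 300 bases were found in RefSeq (GRCh38.p14) for 8 of the 10 members, 11 promoters in all because E2F3 and TFDP2 have several. E2F5 and E2F8 had none there and were not searched. A site was found in 4 of the 11, or 36.4%, against 2.74% of 35116 promoters of all genes. The second promoter of E2F3 and those of E2F4, E2F6, E2F7 and TFDP2 held none. The sites are shown with 10 bases on each side, in the direction of the gene, with the match in capitals.
E2F1: gcaaaaaggaTTTGGCGCgtaaaagtgg
E2F2: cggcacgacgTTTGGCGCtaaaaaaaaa
E2F3: tgaaaagccgGCGGGAAAtccgagtttc
TFDP1: ggcgccgaagGCGCGAAAaggcgcgcag
The match begins 20, 42, 53 and 120 bases before the annotated start in E2F1, E2F2, E2F3 and TFDP1. Their log2 fold changes were 0.00, -0.17, -0.30 and 0.08, and of these only that of E2F3 passed the test.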

How the data were processed

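RNA from 6 HEK293T cultures was sequenced after TruSeq RNA v2 library preparation, per the labels' protocols. The authors deposited raw read counts per Ensembl gene; the submitters' processing notes name STAR 2.7.11a, featureCounts, Subread 2.0.3, edgeR 3.42.4 and GRCh38. For the annotation release, the strand setting and reads shared by genes, the settings were not given in the sources used here. Named pseudogenes of members held at most 20 counts in any library.

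Counts were filtered with filterByExpr (minimum count 10, minimum total 15), scaled by TMM and tested with edgeR 4.0.16 (quasi-likelihood, R 4.3.3) on all 17427 genes kept, group being the only term; adjusted p-values are Benjamini-Hochberg over all of them. Standard errors are the log2 fold change divided by the root of the F statistic. The test was also run on simulated data. CPM use TMM library sizes. P-values set the difference between the groups against the spread between these 6 libraries, which edgeR estimates with information from all genes. Chi-square per degree of freedom between libraries of a group was 8.39 or more, so no library merely repeated the reads of another in its group. It cannot tell whether the libraries came from separate cultures. Gene models and UTRs come from GENCODE 29, pairing from ViennaRNA 2.7.2.

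The members and lists were chosen with earlier results of these data known. Named genes were all members, in each list those past the threshold (where more than 6 passed, the 6 largest changes at a mean log2 CPM of 3 or above, and where none did the 2 most expressed), genes sharing exons with a member, and the 2 closest patterns of each called member. CCNE1, CDKN1A, CDT1 and TP73 were named for calls lost in other fits. Alternatives were DESeq2 1.42.0, limma-voom (limma 3.58.1), other scalings and filters, a replicate block, leaving out each library, other lengths and other transcripts.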

Additional observations from a re-analysis of the deposited data

How the results depend on the processing

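The falls of E2F5 and E2F3 held in all 13 alternative fits, with log2 fold changes of -1.17 to -0.999 and -0.33 to -0.27 and adjusted p-values of at most 2.9e-06 and 0.042. No member rose in the reported fit; 1 did with no filter (E2F8, adjusted p = 0.041), and 0 to 2 did when single libraries were left out. E2F1 ranged from -0.0366 to 0.0312 when single libraries were left out, below 0 without control replicate 1 or miR-34a replicate 1. Leaving out single libraries gave 727 to 1394 genes that fell and 525 to 1287 that rose over all genes. By list, 5 to 8 G1 regulators fell and 0 to 2 rose, and 6 to 9 E2F targets fell and 1 to 6 rose. Among the fallen E2F targets, CDT1 had an adjusted p of 0.13 by edgeR without miR-34a replicate 2. TP73 had 0.16 without miR-34a replicate 3. These fits gave 0 to 1 risen E2F6 partners, 1 to 2 risen MuvB genes and 0 to 2 fallen cofactors. In the multiciliation list 2 to 3 genes fell and 0 to 2 rose, and 11 to 12 published targets fell and 0 to 1 rose. With DESeq2, 4 E2F targets rose and 2 cofactors fell. No multiciliation gene rose (0) by library size only or with the filter of 1 CPM in 3 libraries, and 1 published target, SIRT1, rose with no filter; its rise was in miR-34a replicate 2 alone (428 CPM, against 49.7 and 73.3 CPM in the others and 71.1 to 92.4 CPM in the control). With the length of 1 transcript, the change in the share of E2F1, E2F2 and E2F3 turned from -1.13 to 0.522 percentage points, and that of E2F5 within its pair moved from -7.09 to -11.2. The replicate numbers did not pair the libraries: same-numbered deviations correlated at -0.025, 0.022 and -0.076. With the replicate block, 2 members fell and 0 rose, as before, while 1023 genes fell and 807 rose over all genes. CDT1, one of the 8 fallen E2F targets, lost its call with the block (adjusted p = 0.061 by edgeR), so 7 fell. Among the members and the lists of related genes, no other called gene lost its call with the block. FOXJ1, with 0 counts in a pair of control libraries, and the 7 germ cell genes not tested, with at most 8 counts, are limited by depth.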
